A study of Mus musculus with 12 samples.

Results

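The proteasome and immunoproteasome genes of the mouse were described in liver 2 h after lipopolysaccharide (LPS) and in LPS-treated peritoneal macrophages carrying a hairpin RNA against the long non-coding RNA Gm26917. Members were chosen by symbol, as the genes whose symbol is Psma, Psmb, Psmc, Psmd, Psme, Psmf or Psmg followed by a number and nothing else. This gave 48 genes of 49585 gene IDs in the liver tables and 48 of 55401 in the macrophage tables. No measured value entered that rule, but the family was selected on earlier results of these data in which the liver fold change of Psmb9 was known, so the liver values of Psmb9 are given as a description. Near relatives whose symbols carry further letters, such as Psme2b and Psmc3ip, are not members, and neither are the pseudogenes.

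The study held 12 poly(A) RNA libraries from C57BL/6 mice (4 groups of 3). Livers came from untreated animals, which the sample titles call WT, or from animals given LPS, a component of bacterial outer membranes, for 2 h, whose labels give the strain and no genotype. The macrophage groups were peritoneal macrophages that had carried a hairpin lentivirus for 72 h before 2 h of LPS. The hairpin was a negative control (shNC) or was directed against Gm26917 (shGm26917), so both macrophage groups had lentivirus and LPS and neither was unstimulated. Age, sex, LPS dose and route are missing from the labels, as is whether cells of several mice were pooled. The labels do not say that replicates came from separate animals or cultures, so p-values measure only the spread between these libraries. In whole liver and in bulk macrophages, fewer cells of a type and less RNA per cell cannot be told apart.

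The proteasome is the protease that degrades ubiquitin-tagged proteins. Its 20S core is a barrel of alpha rings at the ends and beta rings in the middle, and some of the beta subunits carry the proteolytic sites: Psmb6 (caspase-like), Psmb7 (trypsin-like) and Psmb5 (chymotrypsin-like). Interferon-gamma is known to induce alternative catalytic subunits, Psmb9, Psmb10 and Psmb8, which take these respective places in newly built cores to form the immunoproteasome, known for making peptides for MHC class I. The 19S cap, made of Psmc ATPases and Psmd subunits, binds ubiquitin chains, unfolds the substrate and feeds it into the core. The 11S activator PA28, made of Psme1 and Psme2, is also induced by interferon-gamma and opens the core without the 19S cap. The members fell into 14 constitutive core genes, 5 immunoproteasome genes with PA28 counted among them, 27 regulatory genes (19S cap, assembly chaperones, other activators and an inhibitor) and 2 tissue-restricted core genes. The latter are Psma8, an alpha subunit of male germ cells, and Psmb11, a beta subunit of thymic cortical epithelium.

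Promoter sequences were matched for 40 of the 48 members, all 5 immunoproteasome genes among them, in a RefSeq table on GRCm38.p6 that runs from 250 bases before to 50 bases after each gene's start. The 3 shown are those of the immunoproteasome genes that held a searched motif, Psmb8 and Psme1, and that of Psmb9, whose window overlaps a neighbouring gene of the same pathway. Each is written 5′ to 3′ on the gene's own strand, with motif matches in capitals. Psmb8 lies at chr17:34197945-34198244 on the plus strand, Psmb9 at chr17:34187281-34187580 on the minus strand and Psme1 at chr14:55578244-55578543 on the plus strand.
Psmb8: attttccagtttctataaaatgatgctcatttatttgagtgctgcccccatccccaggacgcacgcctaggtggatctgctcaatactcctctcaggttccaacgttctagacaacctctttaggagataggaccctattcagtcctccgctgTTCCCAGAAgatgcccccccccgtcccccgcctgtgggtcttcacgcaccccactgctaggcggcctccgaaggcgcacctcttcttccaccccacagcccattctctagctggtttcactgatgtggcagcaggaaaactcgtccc
Psmb9: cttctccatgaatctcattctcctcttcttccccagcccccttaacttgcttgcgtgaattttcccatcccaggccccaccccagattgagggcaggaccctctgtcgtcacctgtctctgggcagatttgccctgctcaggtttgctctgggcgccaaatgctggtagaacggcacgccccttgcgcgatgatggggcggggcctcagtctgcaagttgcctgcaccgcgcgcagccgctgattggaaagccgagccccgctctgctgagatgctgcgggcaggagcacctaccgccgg
Psme1: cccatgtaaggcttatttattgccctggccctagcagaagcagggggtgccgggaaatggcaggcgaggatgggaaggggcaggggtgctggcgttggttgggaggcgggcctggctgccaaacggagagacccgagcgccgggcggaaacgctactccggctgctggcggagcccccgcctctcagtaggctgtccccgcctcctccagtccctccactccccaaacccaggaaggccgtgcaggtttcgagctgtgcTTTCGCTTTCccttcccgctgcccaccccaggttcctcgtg
The capitals in Psmb8 mark TTCCCAGAA, a match to the interferon-gamma activated site TTCNNNGAA, which reads the same on both strands. It lies at -97 to -89, counting the start base as 0. The capitals in Psme1 mark TTTCGCTTTC, the minus-strand form of the interferon-stimulated response element core (GAAA, any 2 bases, GAAA), at 9 to 18. The Psmb9 window held no match, and it contains the RefSeq start of Tap1, a subunit of the peptide transporter that feeds MHC class I, which lies 226 bases from the Psmb9 start on the opposite strand. The windows of Psmb10 and Psme2 held none of the motifs.

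Over 32851 promoters of the same length, on both strands, 8.3% held the interferon-gamma activated site, 3.44% the interferon-stimulated core, 12.4% the antioxidant response element core TGACNNNGC and 8.46% the NF-kB consensus. Among the 11 constitutive core genes with a promoter, 0 held the interferon-gamma site, 1 (Psmb3) the interferon-stimulated core, 2 (Psmb5, Psmb6) the antioxidant core and 2 (Psma6, Psma7) the NF-kB consensus. Among 23 regulatory genes the numbers were 2, 3, 4 and 4. No 2 different motifs overlapped in a member's window. A match describes the letters alone, and GENCODE places the first base of Psmb8, Psmb9 and Psme1 474, 434 and 371 bases upstream of the RefSeq start, so other start sites were not covered by these windows.

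Total counts ranged from 17322770 to 20913964 per liver library and from 15605311 to 18062853 per macrophage library. The members together took 0.283 to 0.345% of counts in untreated liver, 0.443 to 0.456% after LPS, 0.557 to 0.646% in shNC macrophages and 0.493 to 0.561% in shGm26917 macrophages. Libraries of a group were unequal. The mean chi-square per gene between shNC replicate 2 and the other shNC libraries was 211 and 251, against 30.7 between those and 30.6 to 41.7 between shGm26917 libraries. In liver it was 206 and 183 for untreated replicate 3 against 90.2 between the others, and 84.7 and 78.6 for LPS replicate 1 against 22.8. For macrophages the level of Gm26917 itself was not analysed here, so the hairpin label was not checked on its target. Defining markers matched the labels: summed hepatocyte markers were at least 61269 CPM (counts scaled to a common library size) in each liver library and at most 0.469 CPM in each macrophage library, where Ttr, Serpina1b and Cps1 were at 0, while summed macrophage markers were at least 11690 CPM there.

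In liver, 30 of the 47 tested members were higher after LPS and 1, Psmd5, was lower (edgeR quasi-likelihood test, Benjamini-Hochberg adjusted p under 0.05 over all genes tested). Of the 13869 genes tested, 23.3% were higher and 22.1% lower. All 5 immunoproteasome genes rose, as did 13 of 14 constitutive core genes and 12 of 27 regulatory genes. The median log2 fold change was 2.93 for the immunoproteasome genes, 0.92 for the constitutive core and 0.53 for the regulatory genes, against -0.056 over all genes tested. The counts and medians here, and the inducible share and class sum below, include Psmb9, whose liver fold change was known at selection. The other immunoproteasome genes, Psmb8, Psmb10, Psme1 and Psme2, had log2 fold changes of 2.93, 3.35, 1.46 and 2.02. Levels in the LPS libraries were all above those in the untreated libraries for 33 members and all below for 2, Psmd5 and Psme4, where 29.4% and 28.4% of all tested genes had such groups. Levels are CPM on library sizes scaled by TMM, a normalization that assumes most genes do not change.

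The size of these changes depended on that scaling. With library totals alone the median of all genes moved from -0.056 to -0.49, and 14% of all genes were higher and 38.3% lower. The members then gave 18 higher and 4 lower, with medians of 2.52, 0.51 and 0.11 for the immunoproteasome, core and regulatory genes, each still above the median of all genes. The sign changed for 8 members, none of which was called in either direction with TMM: Psma8, Psmc1, Psmc6, Psmd8, Psmd11, Psme3, Psmg1 and Psmg3. All 5 immunoproteasome genes were higher with library totals too.

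**Figure D1:**
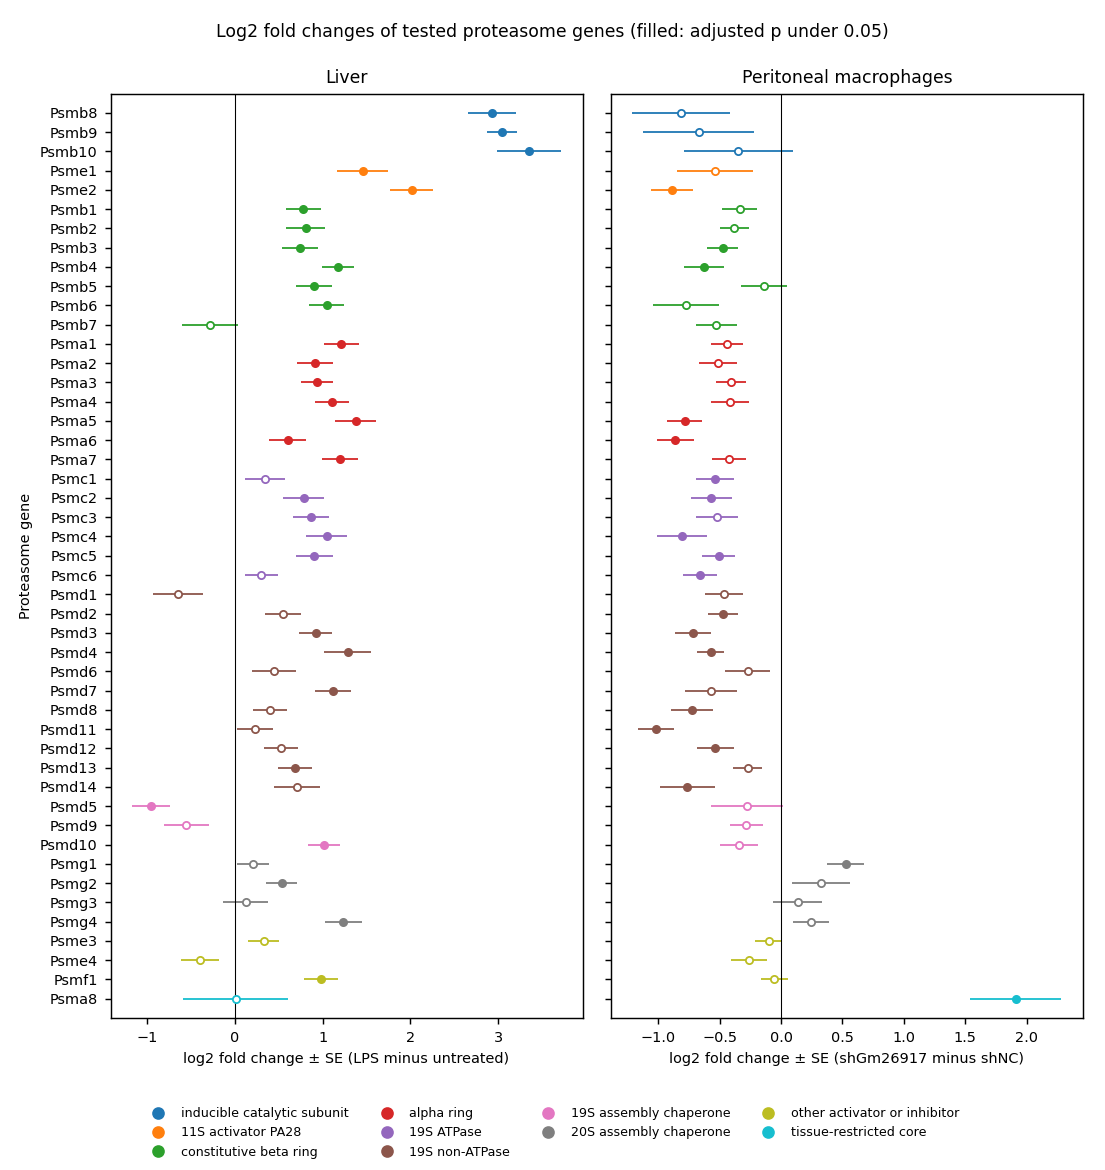
Log2 fold changes ± SE of the 47 tested members (x axis) by gene (y axis), for LPS minus untreated liver on the left and shGm26917 minus shNC macrophages on the right, coloured by role, with filled points where the adjusted p was under 0.05; the x axes differ in range. In liver the inducible catalytic subunits lie near 3 and most other members between 0 and 1.4, and in macrophages most points lie below 0.

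The inducible catalytic subunits had the highest fold changes of the family in liver. Psmb8 (ENSMUSG00000024338, chr17:34197721-34201454, plus strand), which carries chymotrypsin-like activity in the immunoproteasome, measured 17.6, 22.8 and 32.8 CPM in the untreated libraries and 221, 174 and 163 CPM after LPS. The groups did not overlap, and Psmb8 rose 7.64-fold (log2 fold change 2.93 ± 0.27 SE, edgeR adjusted p = 7.65e-05). Psmb10 (ENSMUSG00000031897, chr8:105935735-105938444, minus strand), the trypsin-like inducible subunit, measured 14.0, 18.4 and 32.9 CPM and then 292, 184 and 191 CPM. Untreated replicate 3 was the highest of its group for Psmb8 and Psmb10, and LPS replicate 1 the highest of its group for both. Psmb10 rose 10.2-fold (log2 3.35 ± 0.36 SE, edgeR adjusted p = 0.000178).

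Psmb9 (ENSMUSG00000096727, chr17:34181987-34187764, minus strand), which takes the place of Psmb6, measured 18.1, 18.4 and 19.02 CPM in untreated liver and 150.2, 157 and 150.2 CPM after LPS. Its replicates lay closer together than those of Psmb8 or Psmb10, at 18.5 ± 0.482 and 153 ± 4.1 CPM (SD, n = 3). Psmb8 and Psmb9 flank Tap1 in the MHC class II region. The exons of Psmb9 and Tap1 overlap by 212 bases on opposite strands, and those of Psmb8 overlap the antisense gene Gm20496 by 498 bases. The sources used here do not say whether counting used strand, so such reads cannot be assigned with certainty.

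Both PA28 subunits rose in liver. Psme1 (PA28 alpha, chr14:55578123-55581529, plus strand) measured 55.6, 58.0 and 99.6 CPM untreated and 249.8, 171 and 164 CPM after LPS, a 2.74-fold rise (log2 1.46 ± 0.29 SE, edgeR adjusted p = 0.0041). Psme2 (PA28 beta, chr14:55587441-55591113, minus strand) measured 34.6, 43.9 and 55.2 CPM and then 218, 152 and 170.4 CPM, a 4.04-fold rise (log2 2.02 ± 0.24 SE, edgeR adjusted p = 0.000318). Psme2 has a near-identical copy, Psme2b, at 24.9 ± 7.79 CPM untreated and 57.1 ± 2.9 CPM after LPS (SD, n = 3), and the division of reads between the 2 is uncertain. Summed with Psme2b, an alternative chosen after the data were seen, Psme2 had a log2 fold change of 1.77 (edgeR adjusted p = 0.000634).

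**Figure D2:**
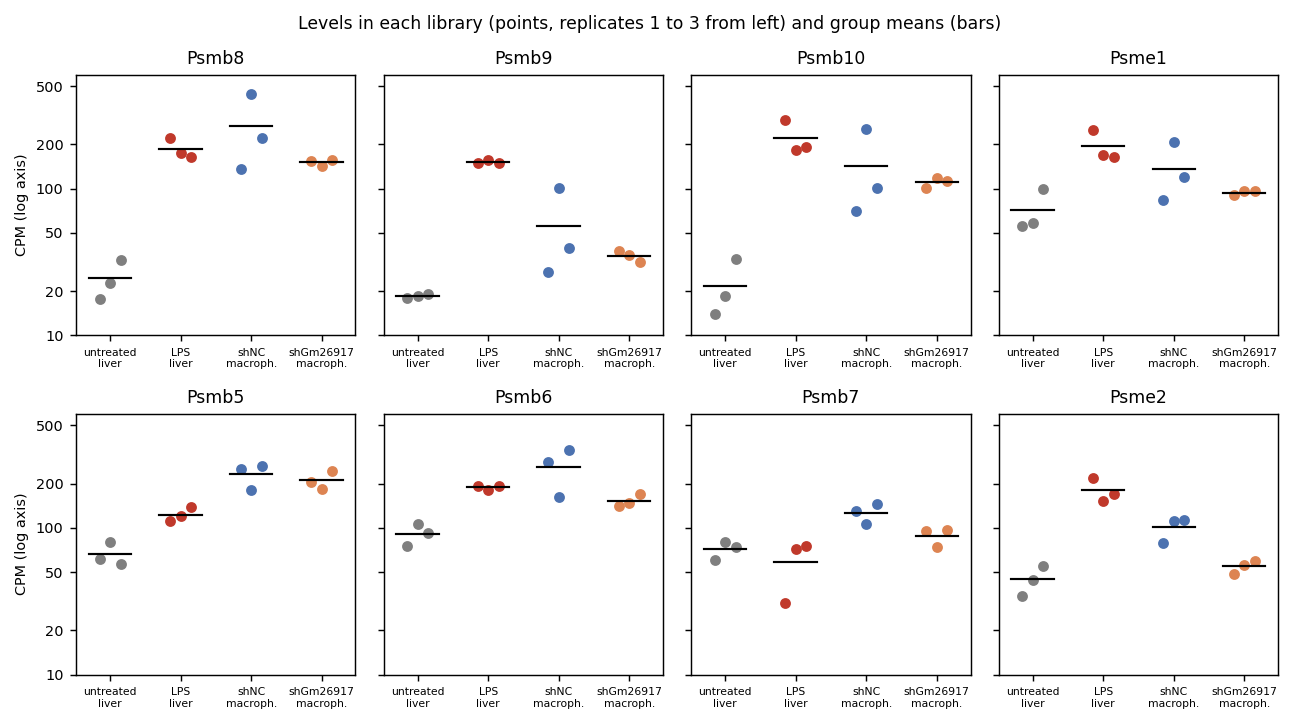
CPM on a log axis in each of the 12 libraries (points, replicates 1 to 3 from left) with group means (bars) for the 5 immunoproteasome genes and for Psmb5, Psmb6 and Psmb7. In liver the LPS points of all 5 immunoproteasome genes lie above the untreated points, and shNC replicate 2 holds the highest macrophage value of Psmb8, Psmb9, Psmb10 and Psme1.

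Of the constitutive catalytic subunits that the inducible ones replace, Psmb5 and Psmb6 rose and Psmb7 did not pass the test. Psmb5 measured 61.2, 80.0 and 57.0 CPM untreated and 111, 120.1 and 139 CPM after LPS (log2 0.90 ± 0.20 SE, edgeR adjusted p = 0.00709). Psmb6 measured 74.7, 107 and 92.2 CPM and then 193, 181 and 193 CPM (log2 1.05 ± 0.20 SE, edgeR adjusted p = 0.00321). Both had groups that did not overlap. Psmb7 measured 60.8, 80.5 and 73.7 CPM untreated and 30.8, 71.3 and 74.9 CPM after LPS (log2 -0.28 ± 0.32 SE, edgeR adjusted p = 0.496). LPS replicate 1 was well below the other 5 libraries for Psmb7, and without it the log2 fold change was 0.044 (adjusted p = 0.876). That library had 9.65% mitochondrial counts against 6.21 to 6.24% in the other LPS libraries and 5.06 to 5.45% in untreated liver, and the part of this in the Psmb7 value was not tested. Psmb7 exons overlap Nek6 by 405 bases on the opposite strand.

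The ratio of an inducible subunit to the constitutive one it replaces is a measure within each library that does not depend on scaling. Psmb8 counts per Psmb5 count were 0.287, 0.285 and 0.575 in untreated liver and 1.99, 1.45 and 1.18 after LPS. Psmb9 per Psmb6 was 0.242, 0.172 and 0.206 and then 0.779, 0.870 and 0.780. Psmb10 per Psmb7 was 0.230, 0.229 and 0.446 and then 9.49, 2.57 and 2.55. None of these groups overlapped, and untreated libraries were below 1 for every ratio. The counts were not divided by gene length here, so a ratio of 1 does not mark equal levels.

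On the log2 scale the Psmb8 to Psmb5 ratio went from -1.47 ± 0.581 to 0.59 ± 0.382 (SD, n = 3), a difference of 2.06 (exact permutation test, 2-sided, p = 0.1, and 0.1 after Benjamini-Hochberg adjustment over the 3 ratios). The Psmb10 to Psmb7 ratio went from -1.80 ± 0.552 to 1.99 ± 1.09, a difference of 3.79 (exact permutation p = 0.1, adjusted 0.1). A p of 0.1 is the smallest that 3 libraries against 3 can give. The Psmb9 to Psmb6 ratio, given as a description, differed by 1.98. Without LPS replicate 1, the library low in Psmb7, the difference for Psmb10 to Psmb7 was 3.16.

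Per kilobase of exon, the inducible subunits made up 12.7, 11.7 and 20.3% of the summed level of the 6 catalytic genes in untreated liver and 54.1, 44.6 and 41.9% after LPS. The group means were 14.9 ± 4.68% and 46.9 ± 6.41% (SD, n = 3). With the longest transcript of each gene in place of all its exons, the means were 15.6% and 47.3%. In untreated liver the order per kilobase of exon was Psmb5 at 73.5 ± 13.6 CPM per kilobase, Psmb6 at 48.8 ± 8.65, Psmb7 at 20.9 ± 2.92, Psmb10 at 12.8 ± 5.79, Psmb8 at 7.21 ± 2.29 and Psmb9 at 5.05 ± 0.132. After LPS it was Psmb5 at 137 ± 15.8, Psmb10 at 130.4 ± 35.6, Psmb6 at 100.8 ± 3.66, Psmb8 at 55.1 ± 9.08, Psmb9 at 41.7 ± 1.12 and Psmb7 at 17.2 ± 7.16. Neighbours within 1 SD of each other, such as Psmb5 and Psmb10 after LPS, cannot be ordered. The top of the order also depended on the length used: per kilobase of the longest transcript, Psmb6 (94.6 ± 16.8) lay above Psmb5 (73.5 ± 13.6) in untreated liver, and Psmb6 (195 ± 7.09) and Psmb10 (169.6 ± 46.3) lay above Psmb5 (137 ± 15.8) after LPS.

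**Figure D3:**
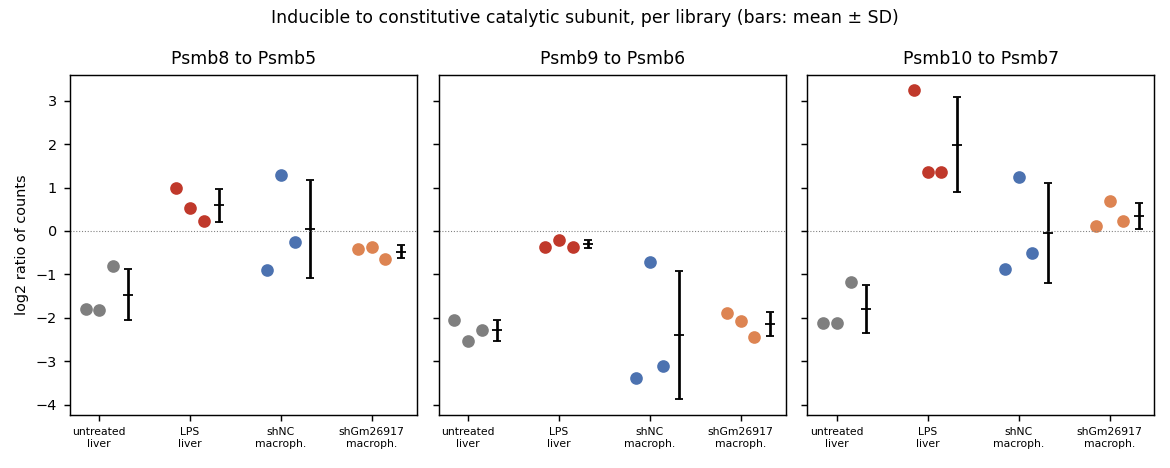
Log2 ratio of the counts of an inducible catalytic subunit to those of the constitutive subunit it replaces (y axis) in each library, with mean ± SD bars, by group (x axis). The LPS liver libraries lie above the untreated ones for all 3 ratios, by 1.98 to 3.79 on average, while the shNC macrophages span the shGm26917 values and shNC replicate 2 lies above the other shNC libraries for each ratio.

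All 7 alpha ring genes rose in liver, with log2 fold changes from 0.60 for Psma6 to 1.38 for Psma5. Psma5 measured 45.4, 54.4 and 36.1 CPM untreated and 91.5, 135 and 126 CPM after LPS (± 0.23 SE, edgeR adjusted p = 0.00173), and its groups did not overlap. Psma6 measured 87.7, 112 and 83.5 CPM and then 118, 158 and 154 CPM (± 0.21 SE, edgeR adjusted p = 0.0421), also without overlap. The Psma6 call was lost in 4 of the 6 fits that left out a library and under other settings. In the constitutive beta ring, Psmb4 had the highest log2 fold change, 1.18 ± 0.18 SE, from 116, 126 and 117 CPM to 259, 275 and 277 CPM (edgeR adjusted p = 0.00107). Psmb1, Psmb2 and Psmb3, the other noncatalytic beta genes, rose by 0.74 to 0.81.

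The 19S cap was less uniform. Among the 6 ATPases, which form the ring that unfolds substrates, 4 rose. Psmc4 was highest, from 59.8, 65.4 and 38.1 CPM to 106, 107 and 125 CPM (log2 1.05 ± 0.23 SE, edgeR adjusted p = 0.00687), and its groups did not overlap. Psmc6 was lowest, from 65.8, 74.7 and 54.8 CPM to 72.8, 83.0 and 85.2 CPM (log2 0.30 ± 0.18 SE, edgeR adjusted p = 0.207), with overlapping groups. Of the 11 non-ATPase genes, 4 rose: Psmd3, Psmd4, Psmd7 and Psmd13. Psmd4, a ubiquitin receptor of the cap, went from 92.6, 96.9 and 51.7 CPM to 220.0, 183 and 184 CPM (log2 1.28 ± 0.26 SE, edgeR adjusted p = 0.00476). Psmd1, the large scaffold subunit that holds ubiquitin receptors, measured 95.8, 87.1 and 51.3 CPM untreated and 36.4, 51.1 and 61.8 CPM after LPS (log2 -0.65 ± 0.28 SE, edgeR adjusted p = 0.0902). The Psmd1 groups overlapped.

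The assembly chaperones did not share a direction. Psmd5, Psmd9 and Psmd10 help build the base of the 19S cap. Psmd5 measured 18.98, 23.0 and 23.2 CPM untreated and 8.71, 13.9 and 10.9 CPM after LPS, and all LPS values lay below the untreated ones. It fell by 0.96 on the log2 scale (± 0.21 SE, edgeR adjusted p = 0.00712), and the call held in each of the 12 alternative fits. Psmd10 rose by 1.02 (± 0.18 SE, edgeR adjusted p = 0.00245), from 7.92, 10.5 and 9.2 CPM to 18.2, 19.9 and 17.8 CPM. Of the chaperones that build the 20S core, Psmg4 rose from 6.51, 8.39 and 7.82 CPM to 21.6, 16.9 and 14.9 CPM (log2 1.23 ± 0.21 SE, edgeR adjusted p = 0.00193). Psmg2 rose by 0.53, a call lost in all 6 fits that left out a library. Psmg1 and Psmg3 had log2 fold changes of 0.21 and 0.12 and did not pass the test.

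Among the remaining regulators, the inhibitor Psmf1 (PI31), which binds the core, rose from 26.5, 29.7 and 22.0 CPM to 42.9, 57.7 and 54.1 CPM (log2 0.98 ± 0.19 SE, edgeR adjusted p = 0.00378). Psme4 (PA200), a large activator that caps the core, measured 95.1, 83.5 and 84.4 CPM untreated and 49.5, 80.1 and 70.2 CPM after LPS (log2 -0.40 ± 0.21 SE, edgeR adjusted p = 0.156). Its groups did not overlap, and with library totals alone it was among the 4 members called lower, with Psmd1, Psmd5 and Psmd9. Without untreated replicate 3, 3 members were lower: Psmd5, Psmd1 and Psmd9. Psma8 stayed between 0.222 and 1.11 CPM in all liver libraries, and Psmb11 had no count in any library of either tissue and was not tested.

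**Figure D4:**
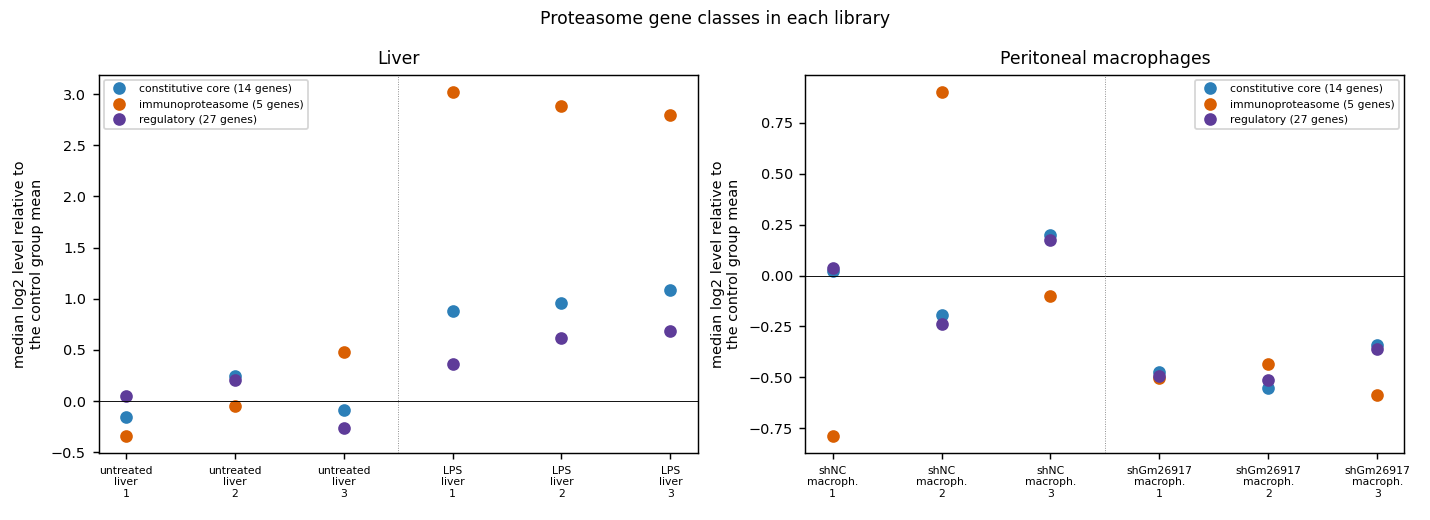
Median log2 level of each class relative to the mean of its control group (y axis) in each library (x axis), for 14 constitutive core, 5 immunoproteasome and 27 regulatory genes. LPS liver libraries lie at 2.79 to 3.02 for the immunoproteasome genes and at 0.88 to 1.08 for the core, and shNC replicate 2 lies at 0.90 for the immunoproteasome genes while its core median is -0.20.

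Summed over each class, the constitutive core went from 1089 ± 152 CPM in untreated liver to 2092 ± 182 CPM after LPS (SD, n = 3), 1.92-fold. The immunoproteasome genes went from 180 ± 52.4 CPM to 936 ± 169 CPM, 5.19-fold, and the regulatory genes from 1510 ± 274 CPM to 2213 ± 170 CPM, 1.47-fold. Markers of other cell types moved in the same libraries, in which 23.3% of all genes tested were higher and 22.1% lower. The summed level of 8 neutrophil markers was 2.59 to 8.03 CPM untreated and 222 to 310.0 CPM after LPS, with 7 of 7 tested markers higher. Retnlg, Cxcr2, Mmp8 and Ngp were at most 0.347 CPM in each untreated library. They passed the filter on low counts only through the LPS libraries, as did S100a8. The count of 7 therefore carries no weight. Summed T and NK cell markers went from 4.26 to 6.77 CPM to a range of 15.2 to 24.6 CPM with 3 of 8 tested higher. Gzmb, from 0.556 to 1.04 CPM to a range of 8.43 to 12.5 CPM, made up most of that sum after LPS. Nkg7 and Gzma were also higher. Nkg7 passed the filter on low counts only through the LPS libraries, so its call carries no weight although it counts among the 3. Cd3e, Cd3g, Cd2, Klrb1c and Ncr1 did not pass the test, with log2 fold changes of 0.05, -0.22, 0.50, 0.90 and 0.87. The 7 macrophage markers did not move together. Of those 7, Cd14 rose from a range of 4.17 to 6.92 CPM to one of 263 to 428 CPM and made up most of the list's sum after LPS (329 to 544 CPM, against 117 to 147 CPM untreated). Itgam was also higher, but it passed the filter on low counts only through the LPS libraries, so its call carries no weight. Adgre1, Csf1r, Cd68, Lyz2 and Mertk did not pass the test, with log2 fold changes of -0.51, -0.87, 0.45, 0.06 and -0.77. Hepatocyte markers summed to 81726 to 125630 CPM untreated and 61269 to 96841 CPM after LPS, with 1 of 6 lower. The part of these markers in the proteasome values was not tested.

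Genes that work with the proteasome were counted from lists of pathway genes, which hold no member. Of 27 tested partners of the proteasome, 5 were higher and 2 lower in liver, no larger a share than the 23.3% and 22.1% over all genes tested. Pomp, the chaperone that matures the core, had the largest change among them, from 65.4, 93.2 and 94.9 CPM to 175, 181 and 187 CPM (log2 1.10, edgeR adjusted p = 0.00303). Sem1, a small 19S subunit, and Nfe2l2, the NRF2 transcription factor, rose by 0.89 and 0.86. Of 10 ubiquitin and E1 enzyme genes, 6 were higher and 1 lower. They were led by the ubiquitin-like modifiers Isg15, from a range of 5.6 to 12.1 CPM to one of 687 to 931 CPM, and Ubd (FAT10), from 0.174 to 0.546 CPM to a range of 9.3 to 16.4 CPM. Ubd passed the filter on low counts only through the LPS libraries, so its call carries no weight although it counts among the 6. Uba7, the activating enzyme of ISG15, rose by 3.78 on the log2 scale (edgeR adjusted p = 1.06e-05).

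The list of MHC class I processing genes and their inducers had 13 of 19 genes higher in liver, against 23.3% of all genes tested. Tap1 rose from 29.1, 21.6 and 22.5 CPM to 548, 375 and 380 CPM (log2 4.15, edgeR adjusted p = 1.06e-05). Nlrc5, the transactivator of class I genes, rose by 4.03 (edgeR adjusted p = 7.23e-06). Ifng, which encodes interferon-gamma, was listed at 0.0455, 0 and 0 CPM in untreated liver and at 2.70, 0.721 and 0.949 CPM after LPS. Ifng thus passed the filter on low counts only through the LPS libraries, and its call carries no weight although it counts among the 13. The log2 fold change of Tap1 was larger than those of Psmb8 and Psmb9, its neighbours in the locus. Psmb9 counts per Tap1 count, a ratio chosen after its values were seen, were 0.621, 0.852 and 0.844 untreated and 0.274, 0.420 and 0.396 after LPS.

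In macrophages, 17 of the 47 tested members were lower with the Gm26917 hairpin than with the control hairpin, and 2 were higher. Of the 12876 genes tested, 11.1% were lower and 12.6% higher. Lower were 4 of 14 constitutive core genes, 1 of 5 immunoproteasome genes and 12 of 27 regulatory genes. The median log2 fold changes were -0.46, -0.67 and -0.47 in that order, against -0.00073 over all genes tested. All shGm26917 values lay below all shNC values for 29 members and above them for 3, where 21.7% and 24.2% of all tested genes had such groups.

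The number of calls depended on single libraries, while the median log2 fold change over the members stayed between -0.42 and -0.55 in every fit that left out 1 library. That of the immunoproteasome genes ranged from -1.02 to -0.13. Without shNC replicate 2, the library that stood apart, 33 members were lower, 13 of 14 core genes and 19 of 27 regulatory genes among them, and 19.1% of all genes tested were lower. Leaving out shNC replicate 1 or 3 gave 6 lower in each case, with 8.15% and 6.03% of all genes lower. Leaving out shGm26917 replicate 1, 2 or 3 gave 1, 1 and 3, with 4.61%, 2.72% and 3.07% of all genes lower. At most 2 core genes were lower in any of those 5 fits. Psmd11 was lower in every one of these fits. With library totals alone the median of all genes moved to 0.29, 24.3% of all genes were higher and 6.17% lower, and the members gave 3 higher and 4 lower. The class medians were then -0.17 for the core, -0.18 for the regulatory and -0.37 for the immunoproteasome genes, below the median of all genes, and 8 members, all without a call under TMM, changed sign: Psmb5, Psmd5, Psmd6, Psmd9, Psmd13, Psme3, Psme4 and Psmf1.

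The 19S cap held most of the lower calls, although the median log2 fold changes of regulatory and core genes were close (-0.47 and -0.46). With the DESeq2 Wald test 14 of 27 regulatory and 11 of 14 core genes were lower, where 12.7% of all genes tested were. Psmd11, a scaffold subunit of the cap's lid, had the lowest log2 fold change of the family. It measured 198, 170.2 and 221 CPM in shNC and 104, 86.0 and 100.01 CPM in shGm26917 macrophages, and the groups did not overlap. Psmd11 fell by 1.02 (± 0.15 SE, edgeR adjusted p = 0.00653). In all, 7 of 11 non-ATPase genes fell. Psmd13 was at the other end, from 127, 115 and 143 CPM to 101, 109 and 108 CPM (log2 -0.27 ± 0.12 SE, edgeR adjusted p = 0.144), with groups that did not overlap.

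Of the 6 ATPases, 5 fell, and all 6 had groups that did not overlap. Psmc4 measured 179, 123 and 207 CPM in shNC and 97.7, 89.2 and 104 CPM in shGm26917 macrophages (log2 -0.81 ± 0.20 SE, edgeR adjusted p = 0.0324). Psmc5 measured 155, 142 and 177 CPM and then 106, 105 and 123 CPM (log2 -0.51 ± 0.13 SE, edgeR adjusted p = 0.0365). The library shNC replicate 2 was the lowest of its group for 14 of 14 core genes and 23 of 27 regulatory genes.

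In the core, Psma5, Psma6, Psmb3 and Psmb4 fell. Psma6 had the lowest value among the alpha genes, from 227, 195 and 263 CPM to 123, 116 and 138 CPM (log2 -0.86 ± 0.15 SE, edgeR adjusted p = 0.011). Psma3 was the least changed alpha gene, from 64.1, 64.1 and 70.7 CPM to 49.4, 44.6 and 55.8 CPM (log2 -0.41 ± 0.12 SE, edgeR adjusted p = 0.0506). All 7 alpha genes had shGm26917 values below every shNC value.

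The constitutive catalytic subunits did not pass the test. Psmb6 measured 283, 163 and 338 CPM in shNC and 141, 147 and 171 CPM in shGm26917 macrophages (log2 -0.77 ± 0.27 SE, edgeR adjusted p = 0.0782), and its groups overlapped through shNC replicate 2. Without that library its log2 fold change was -1.04 (adjusted p = 0.00115). Psmb5 measured 253, 181 and 263 CPM and then 204, 185 and 244 CPM (log2 -0.14 ± 0.19 SE, edgeR adjusted p = 0.629), with overlapping groups. Psmb7 measured 131, 106 and 145 CPM and then 94.5, 73.9 and 96.2 CPM (log2 -0.53 ± 0.17 SE, edgeR adjusted p = 0.0607), without overlap.

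None of the inducible catalytic subunits passed the test in macrophages. Psmb8 measured 135, 441 and 220.0 CPM in shNC and 154, 143 and 157 CPM in shGm26917 macrophages (log2 -0.81 ± 0.40 SE, edgeR adjusted p = 0.179). Psmb9 measured 27.1, 100.2 and 39.2 CPM and then 37.8, 35.1 and 31.6 CPM (log2 -0.67 ± 0.45 SE, edgeR adjusted p = 0.318). Psmb10 measured 70.7, 253 and 102 CPM and then 102, 119 and 113 CPM (log2 -0.35 ± 0.44 SE, edgeR adjusted p = 0.598). For each of the 3, shNC replicate 2 was the highest library and shNC replicate 1 the lowest, so the shNC libraries spanned all shGm26917 values. Without shNC replicate 2 the log2 fold changes were -0.25 for Psmb8, 0.055 for Psmb9 and 0.35 for Psmb10, none past the test.

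Of the PA28 genes, Psme2 fell and Psme1 did not pass the test. Psme2 measured 78.7, 112 and 113 CPM in shNC and 48.7, 55.5 and 59.9 CPM in shGm26917 macrophages (log2 -0.89 ± 0.17 SE, edgeR adjusted p = 0.0151). Its groups did not overlap, and without shNC replicate 2 its log2 fold change was -0.83 (edgeR adjusted p = 0.007), but the call was lost without shGm26917 replicate 1, 2 or 3 (edgeR adjusted p = 0.0639, 0.0677 and 0.0531). Summed with Psme2b, which lay at 194 ± 45.5 CPM in shNC and 99.6 ± 6.41 CPM in shGm26917 macrophages (SD, n = 3), Psme2 had a log2 fold change of -0.94 (edgeR adjusted p = 0.0171). Psme1 measured 83.2, 207 and 120 CPM and then 89.8, 96.5 and 95.7 CPM (log2 -0.54 ± 0.31 SE, edgeR adjusted p = 0.248), with overlapping groups.

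Some markers of other cells were also high in shNC replicate 2. Summed B cell markers reached 629 CPM there against 299 and 199 CPM in the other shNC libraries and 121 to 296 CPM in shGm26917 macrophages. All 6 B cell markers were highest there among the shNC libraries. Summed neutrophil markers reached 647 CPM against 307 and 273 CPM and a range of 443 to 531 CPM in shGm26917 macrophages, a sum carried by Csf3r (411 CPM) and S100a8 (193 CPM). Other markers on that list did not follow: Mmp8 was lowest in that library among all macrophage libraries, at 43.1 CPM, S100a9 and Cxcr2 were at 0.0676 and 0 CPM, and Retnlg, Ly6g and Ngp were at 0 in every macrophage library. Macrophage markers were mixed as well. Their sum was 11690 CPM against 19918 and 21616 CPM, with Lyz2 (3097 CPM) and Cd14 (3766 CPM) lowest of the shNC libraries and Adgre1 (2092 CPM) and Mertk (66.0 CPM) highest. Fibroblast and mesothelial markers summed to 25.7 CPM against 2.34 and 1.82 CPM, of which Dcn made up 23.2 CPM. Between the hairpin groups, 3 of 7 macrophage markers were higher with the Gm26917 hairpin and 1 lower, against 12.6% and 11.1% of all genes tested. Csf1r, Cd68 and Lyz2 rose (log2 1.32, 0.81 and 1.48) and Cd14 fell (-2.19), while Adgre1, Itgam and Mertk did not pass the test. The part of all these transcripts in the proteasome values was not tested.

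The ratios within each library did not separate the macrophage groups. Psmb8 per Psmb5 was 0.535, 2.44 and 0.836 in shNC and 0.754, 0.771 and 0.640 in shGm26917 macrophages (log2 difference -0.52, exact permutation p = 0.7, adjusted 0.9). Psmb9 per Psmb6 was 0.0959, 0.613 and 0.116 and then 0.269, 0.238 and 0.185 (0.27, exact permutation p = 0.9, adjusted 0.9). Psmb10 per Psmb7 was 0.541, 2.38 and 0.703 and then 1.07, 1.61 and 1.18 (0.39, exact permutation p = 0.6, adjusted 0.9). Without shNC replicate 2 the log2 differences were 0.11, 1.11 and 1.04, and for Psmb9 and Psmb10 both remaining shNC libraries lay below all 3 shGm26917 libraries. Per kilobase of exon, the inducible share of the catalytic genes was 15.9, 48.9 and 20.8% in shNC and 25.9, 28.4 and 23.7% in shGm26917 macrophages.

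Of the 4 chaperones of 20S assembly, Psmg1 rose and the others did not pass the test. Psmg1 went from 8.64, 10.5 and 10.4 CPM to 13.1, 14.5 and 15.1 CPM, with groups that did not overlap (log2 0.53 ± 0.15 SE, edgeR adjusted p = 0.0476). The other Psmg genes had log2 fold changes from 0.13 to 0.33. Psmd10 had the lowest value among the chaperones, from 100.4, 81.3 and 109 CPM to 75.9, 67.6 and 85.5 CPM (log2 -0.34 ± 0.15 SE, edgeR adjusted p = 0.146). The Psmg1 call was lost without any 1 of 5 libraries and held without shNC replicate 2 (edgeR adjusted p = 0.0296).

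Psma8, the germ cell alpha subunit, was higher with the Gm26917 hairpin at a level near 1 CPM. Its counts were 6, 8 and 5 reads in shNC and 31, 23 and 36 reads in shGm26917 macrophages, or 0.402, 0.541 and 0.338 CPM and 1.58, 1.26 and 2.04 CPM. Psma8 passed the filter on low counts only through the shGm26917 libraries, where it is high, so its log2 fold change of 1.91 is given as a description although it counts among the 2 members called higher. The inhibitor Psmf1 measured 31.2, 29.4 and 31.7 CPM and then 31.3, 27.5 and 30.0 CPM (log2 -0.054 ± 0.11 SE, edgeR adjusted p = 0.743). Psme4 measured 108, 146 and 112 CPM and then 107, 98.8 and 98.99 CPM (log2 -0.26 ± 0.15 SE, edgeR adjusted p = 0.237).

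Summed over each class, the constitutive core was at 2328 ± 363 CPM in shNC and 1630 ± 159 CPM in shGm26917 macrophages (SD, n = 3), 1.43-fold lower. The regulatory genes were at 3767 ± 528 CPM and 2625 ± 175 CPM, 1.44-fold lower. The immunoproteasome genes were at 701 ± 371 CPM and 446 ± 12.8 CPM, with 395, 1113 and 594 CPM in the 3 shNC libraries, so their groups overlapped.

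The lists of related genes moved as follows in macrophages. Of 26 tested partners, 4 were lower, led by Nploc4 and Ufd1, cofactors of the VCP segregase (log2 -0.83 and -0.68), and Ubqln1, a ubiquitin shuttle (-0.53), and 1, Ddi2, was higher, where 11.1% and 12.6% of all genes tested were lower and higher. Of 9 ubiquitin and E1 genes, 5 were lower. Isg15 went from 325, 1060 and 781 CPM to 12.8, 9.25 and 10.9 CPM (log2 -6.04, edgeR adjusted p = 0.00233). Ube2l6, the conjugating enzyme of ISG15, had a log2 fold change of -2.66 and Uba1, the main ubiquitin-activating enzyme, one of -1.06.

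Of 18 class I processing genes and inducers, 6 were lower and 1 higher in macrophages, where 11.1% and 12.6% of all genes tested were lower and higher. Tap1 went from 104, 435 and 220 CPM to 67.6, 56.5 and 50.6 CPM (log2 -2.12, edgeR adjusted p = 0.0247), and Nlrc5 had a log2 fold change of -1.75. Tap1 groups did not overlap although those of its neighbour Psmb9 did. Psmb9 counts per Tap1 count were 0.261, 0.230 and 0.178 in shNC, including replicate 2, and 0.559, 0.621 and 0.624 in shGm26917 macrophages. This ratio was also chosen after its values were seen.

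The liver and macrophage comparisons share no sample. Side by side, 10 members were higher in LPS liver and lower with the Gm26917 hairpin: Psma5, Psma6, Psmb3, Psmb4, Psmc2, Psmc4, Psmc5, Psmd3, Psmd4 and Psme2. In each comparison 47 members were tested, with 30 higher in liver and 17 lower in macrophages. The share of all tested genes with both calls is not given here, so the 10 are a listing alone. Of the 17 macrophage calls only that of Psmd11, which is not among the 10, was kept under every setting. Another 20 were higher in liver without a macrophage call, and 7, Psmc1, Psmc6, Psmd2, Psmd8, Psmd11, Psmd12 and Psmd14, were lower in macrophages without a liver call. Psmd5 was lower in liver without a macrophage call, Psma8 and Psmg1 were higher in macrophages without a liver call, and 7 tested members had no call in either. The comparisons differ in tissue and treatment, and the difference between them was not tested.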

How the data were processed

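Poly(A) RNA was measured in 12 mouse libraries, 3 per group, grouped by their treatment labels. The authors deposited 1 table per library of raw read counts by Ensembl ID, per the file headers. STAR, featureCounts 1.6.3 and mm10 are named in the submitters' processing notes. Counting parameters, strand use and the handling of reads with several matches are missing from the sources used here, as is what the word "combined" in the macrophage headers refers to. Symbols matched 49326 of 49585 liver IDs and 55141 of 55401 macrophage IDs, and gene extents are those of GENCODE on GRCm38.

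Liver and macrophages were fitted separately in edgeR 4.0.16 (R 4.3.3), with group as the sole factor, genes kept by filterByExpr, TMM scaling and the 2-sided quasi-likelihood test. P-values were adjusted by Benjamini-Hochberg over all genes tested in the tissue, and a gene was called at an adjusted p under 0.05. CPM use TMM-scaled library sizes, SE is the size of the log2 fold change over the root of F, and SD is over 3 libraries. Ratios added 0.5 to each count and were compared by exact permutation. Levels per length divide CPM by the exon length. Alternatives were DESeq2 (1.42.0) size factors, library totals alone, DESeq2's Wald test, no filter, a filter of 1 CPM in 3 libraries, a replicate block, other added counts and leaving out each library. The sum of Psme2 and Psme2b was added after the data were seen.

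Members, classes, motifs and lists were chosen with earlier results of these data known. Given in every library were the immunoproteasome genes, the catalytic subunits they replace, the highest and lowest member of each role in each comparison, and members called against the direction of their class. Of each list of related genes the 3 largest called changes were named, except 1 that is not reported here, and Ddi2 and genes in counts of 5 or fewer were named after their values were seen.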

Additional observations from a re-analysis of the deposited data

How the results depend on the processing

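In liver, 24 to 32 members were higher under every alternative except library totals alone, which gave 18 higher and 4 lower and class medians of 2.52 (immunoproteasome), 0.51 (core) and 0.11 (regulatory); the lower count ranged from 1 to 3 when a library was left out. Of the 30 members called higher, 23 kept the call without each library in turn and 18 under every setting. In macrophages, 4 members were lower with library totals, 26 with the DESeq2 Wald test, 11 without a filter and 1 to 33 when a library was left out, and 1 member was higher with DESeq2 size factors, the Wald test or no filter, and 0 to 2 with a library left out. Library totals gave class medians of -0.17 (core) and -0.18 (regulatory). Of the 17 lower calls, 1, Psmd11, was kept under every setting; the cause of the other losses was not tested. When a library was left out, the macrophage log2 ratio differences ranged from -0.99 to 0.11 for Psmb8 to Psmb5, from -0.23 to 1.11 for Psmb9 to Psmb6 (reversed at -0.23 and -0.09 without shNC replicate 1 or 3) and from -0.028 to 1.04 for Psmb10 to Psmb7. Same-numbered libraries did not deviate together in every pair (correlations 0.118, 0.0498 and -0.0766 in liver, -0.0407, 0.24 and 0.178 in macrophages), so the numbers were not taken to pair the samples; with a replicate block 29 members were higher and 1 lower in liver, without calls for Psma6 (edgeR adjusted p = 0.0524) and Psmg2 (0.0749), and 1 higher and 18 lower in macrophages. Depth limits Psma8 and leaves Psmb11, with no count, untested.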
